A study of Mus musculus with 8 samples.

Results

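Genes that mark layer 5 pyramidal tract neurons, 9 in number, were followed through single cells of mouse frontal isocortex: Bcl11b, Fezf2, Ldb2, Crym, Pcp4, Fam84b, Etv1, Pou3f1 and Tcerg1l. They were taken as listed rows of both deposited count tables, and all 9 were present among the 17836 genes of one table and the 15769 of the other. Cells came from mice at postnatal day 7, all with the line backcrossed to C57BL/6J and all carrying Foxp2 flox/flox. Cells of the first sort, called D1Tom here, were positive for Drd1a-tdTomato, a dopamine D1 receptor reporter on a bacterial artificial chromosome. Cells of the second sort, called GTE here, were positive for golli-τ-eGFP, a transgene driven by a fragment of the myelin basic protein gene. Controls had the reporter and floxed Foxp2 alone, and conditional knockouts (cKO) had Emx1-Cre in addition, which recombines in progenitors of cortical excitatory neurons and glia and not in cortical interneurons. Each sort had 2 control and 2 cKO libraries, 8 in all, from littermates. The labels give 1 sex per library and do not say whether animals were pooled, so p-values measure the spread between these libraries.

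Pyramidal tract neurons are the thick-tufted neurons of layer 5 whose axons leave the cortex for the brainstem and spinal cord. Fezf2 encodes a zinc finger transcription factor needed to specify them, and it acts through Bcl11b (also called Ctip2), a zinc finger factor needed for growth of the corticospinal tract. Foxp2, the deleted gene, encodes a forkhead transcription factor that is strongest in layer 6 corticothalamic neurons of the cortex.

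The D1Tom libraries held 2395 to 3206 cells with 27323298 to 36379194 counts each, and the GTE libraries 1440 to 3948 cells with 4878370 to 6092396 counts. Median counts per cell were 7198 to 12815 in D1Tom and 1085.5 to 2982 in GTE. In D1Tom 97 barcodes occurred in 2 or more libraries, and 63 did in GTE. Levels are given as CPM, the gene's counts scaled to a common total of the summed cells. Foxp2 itself measured 36.3 and 39.1 CPM for D1Tom controls 1 and 2, and 26.5 and 19.4 CPM for cKO 1 and 2. In GTE it was 9.52 and 46.9 CPM for the libraries labelled control 1 and 2 and 25.4 and 7.43 CPM for those labelled cKO 1 and 2, which overlapped, so Foxp2 does not check the GTE labels. Whether the counted 3′ ends lie in the deleted part is not given in the sources used here.

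D1Tom cells were placed in classes by the counts of marker genes, none of which is among the 9 genes described here. No class was given to 32.5% of D1Tom cells. This share was 28.0% and 26.6% in controls 1 and 2 and 35.6% and 38.8% in cKO 1 and 2. The layer 5 pyramidal tract-like class (PT-like) rested on Vat1l, Parm1, Npr3, Stac, Qrfpr, Slco2a1, Crim1, Opn3, Cdh22 and Igfbp4. Each marker's level in a cell was divided by its mean over all cells and capped at 10. A cell was taken if the mean of these ratios was at least 2 and was the highest among 18 marker lists. The cell also needed counts of 2 of these markers and of 2 general excitatory markers (Slc17a7 and Tbr1 among them). The class held 156 cells, 39 and 51 of them from controls 1 and 2 and 35 and 31 from cKO 1 and 2. Of these, 32 lay within 10% above the cut, and 29 other cells lay within 10% below it. PT-like cells had a median of 26518 counts, the highest of the excitatory classes, against 13835.5 in the layer 6 corticothalamic-like class. Cells were also clustered, as an alternative, without the 9 genes, and the cluster named PT-like held 91 of the 156 cells. Another 19 and 7 lay in the 2 upper layer-like clusters and 19 in a cluster left unnamed, and 139 of the 279 cells of the PT-like cluster had no class by marker counts. The clusters rest on other genes of the same cells, so values with classes from clusters are not independent of the clustering. In GTE only 77 cells fell in any excitatory class and 2 in the PT-like class, so classes were compared in D1Tom alone.

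Tcerg1l was the gene most restricted to PT-like cells. In those cells it stood at 363 and 217 CPM for controls 1 and 2 and 341 and 289 CPM for cKO 1 and 2. The next-highest class, layer 4 or 5 intratelencephalic-like, ranged from 25.8 to 127 CPM, and the 6 remaining classes had means of 14.7 to 49.7 CPM. No library of another class reached the lowest PT-like library. The difference passed edgeR's quasi-likelihood test against all 4 classes that could be fitted. It was largest against Cajal-Retzius-like cells, at log2 4.17 ± 0.29 (SE, n = 4 libraries, adjusted p = 2.8e-11). It was smallest against layer 5 near-projecting-like cells, at log2 2.59 ± 0.24 (adjusted p = 5.1e-08). Tcerg1l lies on the minus strand of chromosome 7, at 138208974 to 138397730 in GENCODE M21 on GRCm38, and overlaps no other annotated gene. The 250 bases before its RefSeq start, chr7:138397731-138397980 on the minus strand of GRCm38.p6, are shown because this gene separates the class most sharply. CpG dinucleotides are in capitals.

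Tcerg1l: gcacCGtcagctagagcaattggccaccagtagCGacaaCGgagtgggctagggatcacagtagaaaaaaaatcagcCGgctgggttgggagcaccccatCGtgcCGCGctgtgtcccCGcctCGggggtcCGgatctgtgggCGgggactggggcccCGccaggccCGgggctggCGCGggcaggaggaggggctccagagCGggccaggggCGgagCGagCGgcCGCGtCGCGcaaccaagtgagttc

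This window held 23 CpG dinucleotides and was 69.6% G or C. As many or more CpG dinucleotides occurred in 13.3% of the 32851 RefSeq windows of the same length, whose median was 6. RefSeq windows were found for 5 of the 9 genes, 6 windows in all with 2 for Etv1. On either strand none of the 6 held the forkhead core TGTTTAC, which occurs in 3.17% of all windows. None held the octamer ATGCAAAT, a sequence bound by POU factors such as Pou3f1, which occurs in 1.6% of windows. None held the ETS core CCGGAAG, which occurs in 6.91%. These letters were searched in 250 bases only.

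Bcl11b was also highest in PT-like cells, at 752 and 547 CPM for controls 1 and 2 and 721 and 675 CPM for cKO 1 and 2. Near-projecting-like cells followed at 389 to 675 CPM and corticothalamic-like cells at 305 to 470 CPM, and the ranges of the first and second classes overlapped. Upper layer-like cells were lowest, at 11.4 to 51.4 CPM. The difference from upper layer-like cells was log2 4.27 ± 0.36 (SE, n = 4 libraries, edgeR adjusted p = 4.0e-09). Against near-projecting-like cells it was log2 0.40 ± 0.29, and against corticothalamic-like cells log2 0.67 ± 0.29, neither past the threshold of 0.05 (edgeR adjusted p = 0.463 and 0.134). With classes from clusters in place of marker counts, the latter was log2 1.48 (edgeR adjusted p = 9.98e-05).

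Fezf2 had its highest level outside the PT-like class. Near-projecting-like cells ranged from 211 to 420 CPM, PT-like cells from 157 to 250 CPM and corticothalamic-like cells from 89.7 to 229 CPM, and each range overlapped the next. Fezf2 in PT-like cells was 212 and 170 CPM for controls 1 and 2 and 250 and 157 CPM for cKO 1 and 2. The difference from near-projecting-like cells was log2 -0.62 ± 0.27 (SE) and did not pass (edgeR adjusted p = 0.167). The difference from corticothalamic-like cells was log2 0.27 ± 0.27 (edgeR adjusted p = 0.576), and with classes from clusters it was log2 0.88 (edgeR adjusted p = 0.00222). Fezf2 was above upper layer-like cells by log2 2.85 ± 0.31 (edgeR adjusted p = 4.8e-07) and above Cajal-Retzius-like cells by log2 3.86 ± 0.40 (edgeR adjusted p = 1.9e-08).

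Etv1, an ETS-domain transcription factor long used as a layer 5 marker, did not follow the name of the list. In PT-like cells it stood at 88.8 and 86.5 CPM for controls 1 and 2 and 97.7 and 80.2 CPM for cKO 1 and 2. Near-projecting-like cells ranged from 482 to 807 CPM and overlapped no other class. Etv1 was lower in PT-like than in near-projecting-like cells by log2 -2.94 ± 0.33 (SE, n = 4 libraries, edgeR adjusted p = 9.5e-07). It was also lower than in corticothalamic-like cells, which ranged from 165 to 308 CPM (log2 -1.51 ± 0.32, edgeR adjusted p = 0.00188). That second direction turned when classes came from clusters, to log2 0.45 (edgeR adjusted p = 0.319), and 52 cells of the near-projecting-like cluster lay in the corticothalamic-like marker class. The difference from near-projecting-like cells could not be recomputed with clusters, since that cluster held 28 cells in cKO 2. Against upper layer-like cells Etv1 was higher by log2 1.37 ± 0.37 (edgeR adjusted p = 0.0137), a call lost without cKO 1 (edgeR adjusted p = 0.147).

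Pou3f1, a POU-domain transcription factor, had overlapping levels in PT-like and upper layer-like cells. It stood at 310 and 330 CPM for controls 1 and 2 and 221 and 204 CPM for cKO 1 and 2 of the PT-like class. Upper layer-like cells ranged from 249 to 312 CPM, and the difference was log2 -0.08 ± 0.21 (SE, edgeR adjusted p = 0.872). With classes from clusters it turned to log2 0.50 (edgeR adjusted p = 0.0976). Both classes lay above every library of every other class. Pou3f1 was higher in PT-like cells than in corticothalamic-like cells by log2 2.65 ± 0.25 (edgeR adjusted p = 3.6e-08) and than in near-projecting-like cells by log2 1.86 ± 0.25 (edgeR adjusted p = 1.3e-05).

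Ldb2, a cofactor that binds LIM-domain proteins, was highest in PT-like cells at 367 and 316 CPM for controls 1 and 2 and 388 and 368 CPM for cKO 1 and 2. The deep intratelencephalic-like class came next with a range of 147 to 359 CPM that overlapped it. That class had too few cells to be tested. Ldb2 was higher than in each of the 4 classes tested, by log2 1.07 ± 0.19 (SE) over near-projecting-like cells up to 3.10 ± 0.23 over Cajal-Retzius-like cells. The largest of the 4 edgeR adjusted p-values was 0.000599.

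Crym, which encodes mu-crystallin, a protein that binds thyroid hormone, was shared between the corticothalamic-like class (77.5 to 126 CPM) and the PT-like class (68.9 to 91.8 CPM). These 2 did not differ past the threshold (log2 -0.35 ± 0.23, SE, edgeR adjusted p = 0.358). Crym was higher in PT-like than in upper layer-like cells by log2 2.32 ± 0.27 (edgeR adjusted p = 1.1e-06). Its difference from near-projecting-like cells was log2 0.84 ± 0.26 with an edgeR adjusted p of 0.0436. That call was lost without any 1 of the 4 libraries, with edgeR adjusted p-values of 0.051 (cKO 1 left out), 0.0967 (cKO 2), 0.121 (control 2) and 0.130 (control 1).

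Fam84b, which belongs to a family of proteins with an LRAT domain, had its highest mean in PT-like cells. It was 46.6 and 44.2 CPM for controls 1 and 2 and 20.4 and 46.8 CPM for cKO 1 and 2. Its differences from near-projecting-like cells (log2 1.07 ± 0.34, SE) and corticothalamic-like cells (log2 0.92 ± 0.32) had edgeR adjusted p-values of 0.0515 and 0.0536. Without cKO 1, its lowest library, the edgeR adjusted p-values were 0.0458 and 0.00282. Against upper layer-like cells, log2 0.66 ± 0.31 did not pass either (edgeR adjusted p = 0.167), but it did without cKO 1 (edgeR adjusted p = 0.0398).

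Pcp4, a small regulator of calmodulin, had its highest class means outside layer 5. Its class means ran from 1212 CPM in layer 6b or subplate-like cells and 1045 CPM in Cajal-Retzius-like cells down to 72.6 CPM in deep intratelencephalic-like cells, and each class overlapped the next in that order. PT-like cells stood at 738 and 311 CPM for controls 1 and 2 and 684 and 363 CPM for cKO 1 and 2. Both replicate 1 libraries, 1 batch by the labels, lay above both replicate 2 libraries here and in Cajal-Retzius-like cells (2098 and 1191 against 450 and 442 CPM). With library as a block, Pcp4 was lower in PT-like than in Cajal-Retzius-like cells by log2 -0.95 ± 0.22 (SE, edgeR adjusted p = 0.000882). It was higher than in upper layer-like cells by log2 2.31 ± 0.24 (edgeR adjusted p = 1.8e-07). Its difference from corticothalamic-like cells, log2 -0.64 ± 0.22, passed at an edgeR adjusted p of 0.046. That call was lost without control 2 (edgeR adjusted p = 0.159) or cKO 1 (edgeR adjusted p = 0.150). Pcp4 overlaps Igsf5 on the same strand, and how reads of the overlap were counted is not given in the sources used here.

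**Figure D1:**
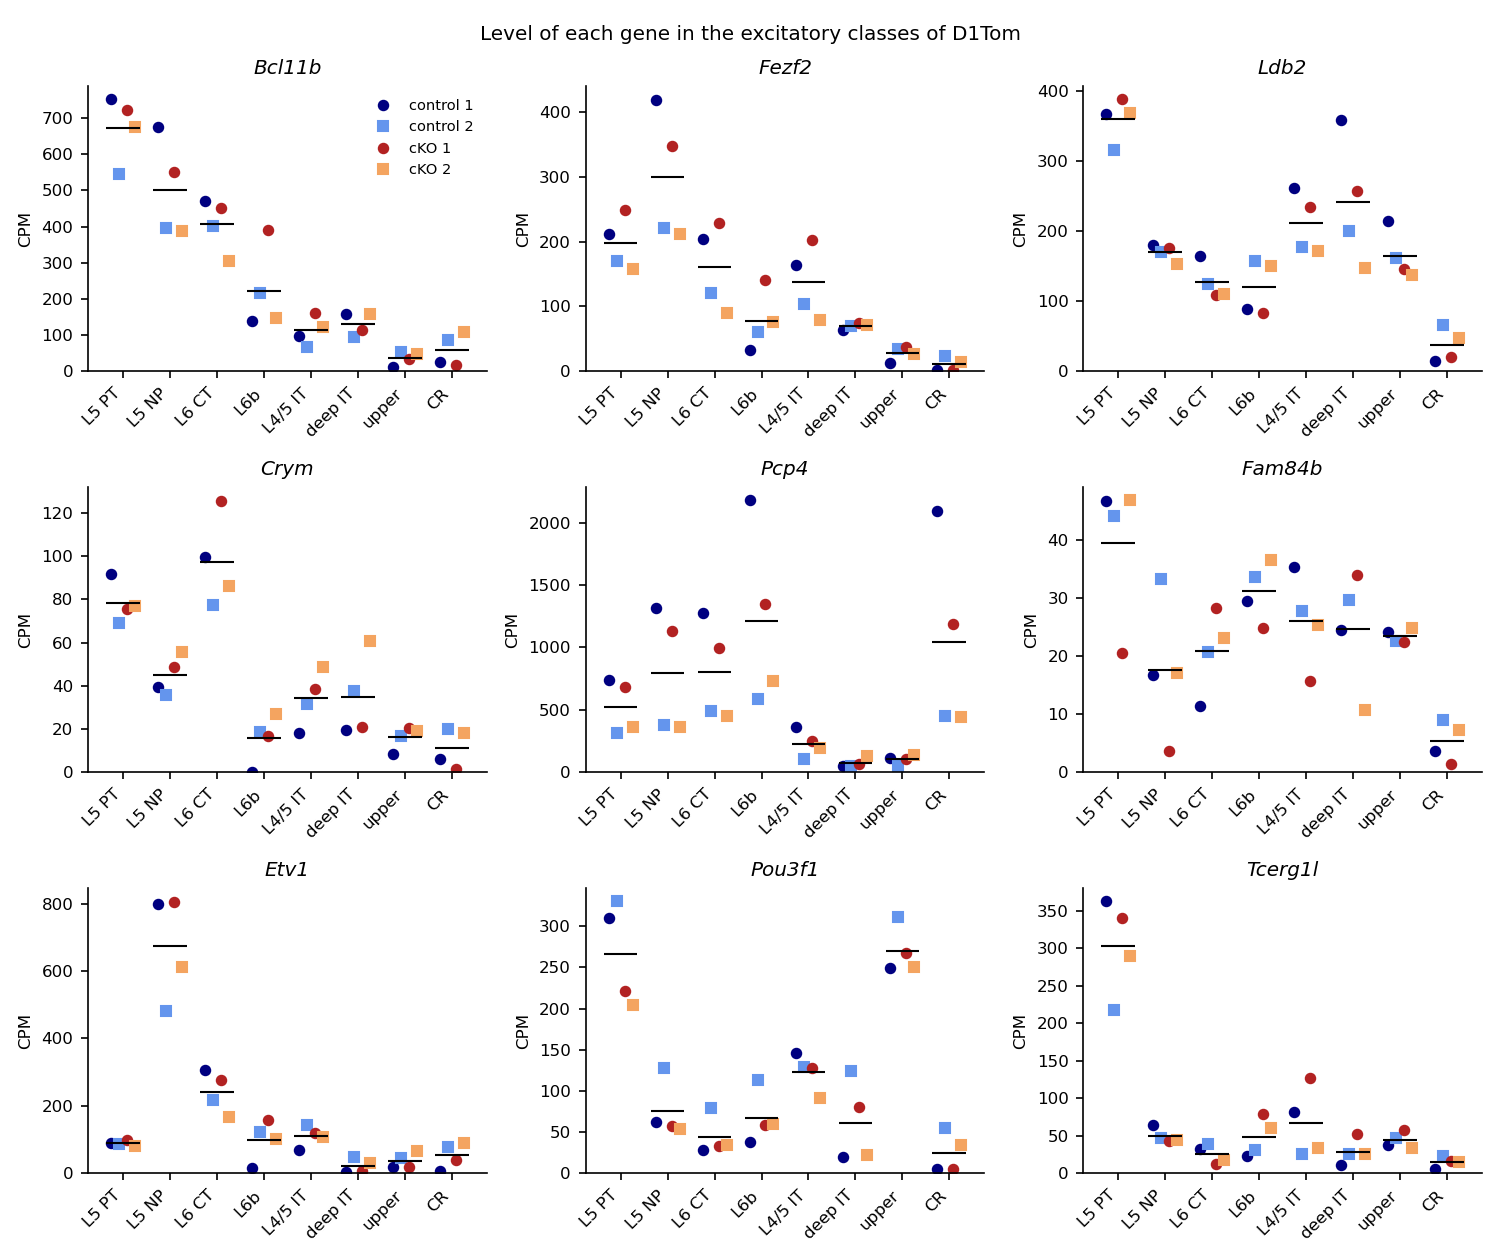
Level of each of the 9 genes (CPM, linear axis from 0, a different scale in each panel) in the 8 excitatory classes of D1Tom, with 1 point per library and a line at the mean of the 4 libraries; L5 PT is layer 5 pyramidal tract-like, NP near-projecting-like, CT corticothalamic-like, IT intratelencephalic-like and CR Cajal-Retzius-like. Tcerg1l is the gene whose PT-like points lie clear of all other classes, and Etv1 is highest in NP, where its 4 points run from 482 to 807 CPM.

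Over the list, 8 of the 9 genes were called against Cajal-Retzius-like cells, where 44.3% of the 10694 genes tested were called. These counts describe genes that were chosen with earlier results of these data known. Against upper layer-like cells 7 were called (12.6% of all genes), and against near-projecting-like and corticothalamic-like cells 5 each (8.85% and 14.4% of all genes). By direction, 7 genes were higher (21.4% of all genes) and 1 lower (22.9%) than in Cajal-Retzius-like cells, and 7 higher (6.58%) and 0 lower (5.98%) than in upper layer-like cells. Against near-projecting-like cells 4 were higher (4.22%) and 1 lower (4.63%), and against corticothalamic-like cells 3 higher (6.94%) and 2 lower (7.49%). The median log2 difference of the 9 genes was 3.10 against Cajal-Retzius-like, 2.31 against upper layer-like, 0.84 against near-projecting-like and 0.67 against corticothalamic-like cells. Over all genes these medians lay between -0.03 and -0.02. Ldb2 and Tcerg1l were the 2 genes called higher in PT-like cells in all 4 contrasts.

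**Figure D2:**
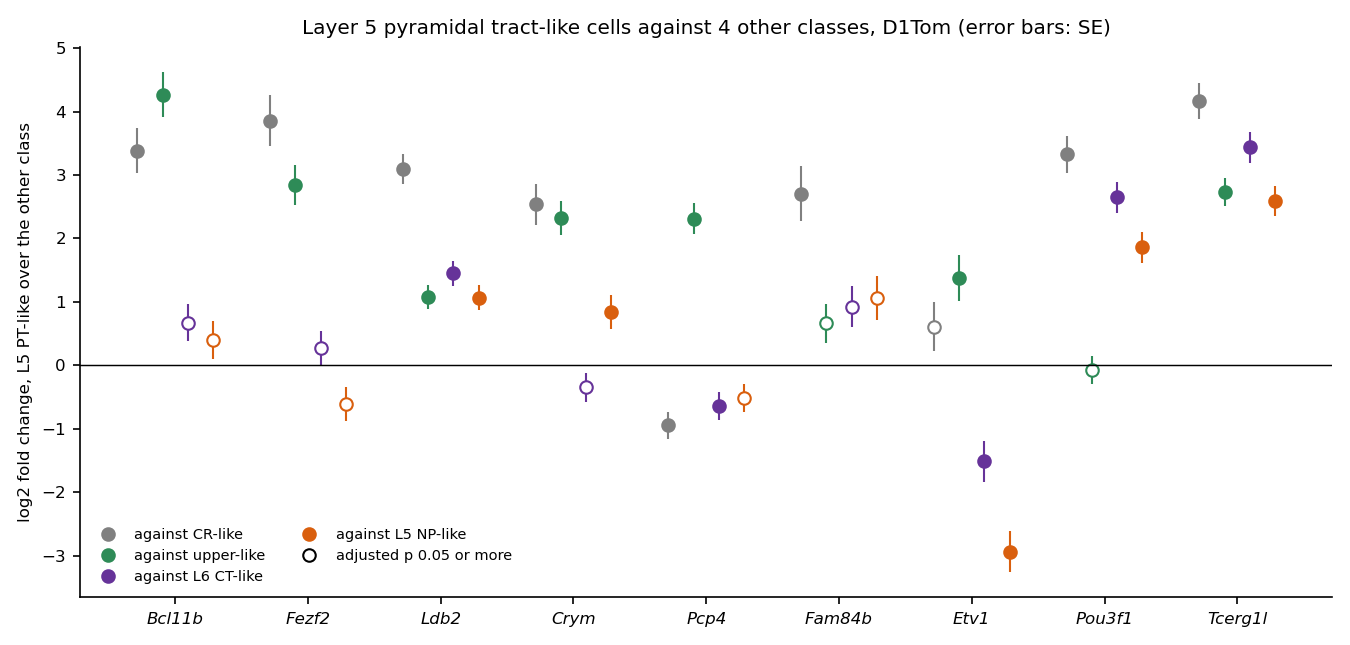
Log2 fold change of PT-like cells over each of 4 other classes for the 9 genes, with standard errors from 1 fit over 4 libraries; filled points passed the edgeR threshold and open points did not. Tcerg1l and Ldb2 are above 0 and filled in all 4 contrasts, whereas Etv1 falls to -2.94 against near-projecting-like cells.

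Other genes of subcerebral neurons were taken from a list of 22 that holds none of the 9. Of the 19 tested in PT-like cells, 17 were called higher than in Cajal-Retzius-like cells (21.4% of all genes) and 13 than in upper layer-like cells (6.58%). Another 12 were called higher than in corticothalamic-like (6.94%) and 11 than in near-projecting-like cells (4.22%), counted over the same 19. In each contrast 1 was lower, where 22.9%, 5.98%, 7.49% and 4.63% of all genes were, in that order. Of the 22, Crim1, Opn3, Cdh22 and Igfbp4 also defined the PT-like class, so their direction was fixed by the classing. Slc17a7 was a general excitatory marker, and PT-like cells needed 2 such markers whereas the Cajal-Retzius-like class did not ask for them. Nefl, a neurofilament subunit, averaged 502 CPM in PT-like cells against 126 in near-projecting-like cells (log2 2.00 ± 0.20, SE, edgeR adjusted p = 1.7e-07). Nefm, another subunit, averaged 88.3 against 16.8 CPM (log2 2.44 ± 0.27). Thy1, a surface glycoprotein of projection neurons, averaged 464 against 190 CPM (log2 1.27 ± 0.14). Cdh13, a cadherin, averaged 306 against 102 CPM (log2 1.57 ± 0.17). Kcnab1, a potassium channel subunit, was the gene of this list called lower than in near-projecting-like cells, at 6.84 against 67.4 CPM (log2 -3.22 ± 0.39).

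Of 25 transcriptional regulators of projection neuron identity, 0 were called higher in PT-like than in near-projecting-like cells (4.22% of all genes) and 6 were called lower (4.63%). Against corticothalamic-like cells 2 were higher (6.94%) and 6 lower (7.49%), against upper layer-like cells 3 higher (6.58%) and 13 lower (5.98%), and against Cajal-Retzius-like cells 12 higher (21.4%) and 7 lower (22.9%). Among these regulators Cux1, Cux2 and Lhx2 helped define the upper layer-like class, and Tle4 the corticothalamic-like class. Their direction in those contrasts was fixed by the classing. Neurod2 and Neurod6, like Tbr1, were general excitatory markers. Cajal-Retzius-like cells, unlike PT-like cells, did not need such markers, so the direction of these genes in that contrast was not free of the classing. Tle4, a corepressor that also served as a corticothalamic marker, averaged 25.6 CPM in PT-like, 175 in near-projecting-like and 324 in corticothalamic-like cells. Tbr1, a T-box factor of layer 6 that was also a general excitatory marker, averaged 84.2 CPM in PT-like and 299 in corticothalamic-like cells (log2 -1.89 ± 0.13, SE, edgeR adjusted p = 1.1e-10). Bhlhe22 was higher in PT-like than in corticothalamic-like cells (175 against 75.8 CPM, log2 1.13 ± 0.14). Of the callosal neuron genes, 15 of 17 tested were lower in PT-like than in upper layer-like cells (5.98% of all genes) and 0 higher. Of the callosal list, Cux1, Cux2, Inhba, Plxnd1 and Nectin3 (also listed as Pvrl3) defined the upper layer-like class, so their direction was fixed by the classing. Lpl, a lipoprotein lipase, averaged 24.4 against 177 CPM (log2 -3.06 ± 0.34), and Hspb3, a small heat shock protein, 15.3 against 73.8 CPM (log2 -2.35 ± 0.25).

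In GENCODE M21 on GRCm38, Bcl11b lies at chromosome 12, 107910403 to 108003602 (minus strand), and Fezf2 at chromosome 14, 12342094 to 12348189 (minus). Ldb2 lies at chromosome 5, 44472132 to 44799680 (minus), and Crym at chromosome 7, 120186380 to 120202111 (minus). Pcp4 lies at chromosome 16, 96467606 to 96525793 (plus), and Fam84b at chromosome 15, 60818994 to 60853778 (minus). Etv1 lies at chromosome 12, 38779380 to 38870484 (plus), and Pou3f1 at chromosome 4, 124656807 to 124660655 (plus). All 9 are protein coding, and Pcp4 was the one that overlapped another counted gene.

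The 9 genes did not vary as 1 group over the 20 class-by-library sums. Bcl11b and Fezf2 ran closest together (Pearson r = 0.932 on log2(CPM + 10)), and Ldb2 ran with Tcerg1l (r = 0.840) and Pou3f1 (r = 0.808). Pcp4 and Pou3f1 ran in opposite directions (r = -0.718), and Etv1 and Tcerg1l were near unrelated (r = 0.0577). These sums share 4 libraries and 5 classes, so the coefficients are descriptions. Among 9252 genes that were neither members nor class markers, Kif26a (r = 0.944), Tox (0.932) and Grik3 (0.917) were most like Bcl11b. Rprml (0.953), Lix1 (0.937) and Lmo3 (0.936) were most like Fezf2. Robo1 (0.969), Oma1 (0.957) and AC168051.1 (0.936) were most like Tcerg1l. Epha5 (0.973), Fscn1 (0.970) and Kcng1 (0.968) were most like Ldb2. Trpc5 (0.945), Bhlhe40 (0.943) and Egr3 (0.942) were most like Pou3f1. Nova1 (0.934), Olfm3 (0.887) and Kctd12 (0.866) were most like Etv1. Sdk2 (0.947), Arhgap26 (0.942) and Armc8 (0.917) were most like Crym. Islr2 (0.942), Cd47 (0.925) and Pdzd2 (0.914) were most like Pcp4. Fam84b had the weakest neighbours, Fam234b (0.884), Tlk1 (0.864) and Lrrc8b (0.858).

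Cells were also thinned to 1000 counts each, to compare the share with a count at equal depth. In PT-like cells Bcl11b was counted in 35.3% (exact 95% interval 27.8 to 43.3%, 156 cells), against 76.9% without thinning. Endothelial-like cells, which should lack neuronal genes, gave 3.33% (1.45 to 6.46%, 240 cells), and median depths before thinning were 26518 and 19660.5 counts. Interneuron-like cells gave 24.6% (21.9 to 27.3%, 1026 cells), so counts of Bcl11b were not restricted to excitatory classes. Tcerg1l was counted in 19.9% (13.9 to 27.0%) of PT-like, 4.87% (3.64 to 6.38%) of interneuron-like and 0.417% (0.0106 to 2.30%) of endothelial-like cells. Fezf2 was counted in 14.1% (9.05 to 20.6%) of PT-like cells, 0.877% (0.402 to 1.66%) of interneuron-like and 0 of 240 endothelial-like cells (upper limit 1.52%). Etv1 was counted in 5.77% (2.67 to 10.7%) of PT-like cells and 2.08% (0.680 to 4.80%) of endothelial-like cells, and the intervals overlapped. Astrocyte-like cells gave 7.91% (6.72 to 9.22%), an interval inside that of PT-like cells. Intervals cover counting error only.

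Cells with several of the genes at once set the class apart less sharply. After thinning to 5000 counts, 4 or more of the 9 genes were counted in 63.5% of 148 PT-like cells, 72.2% and 54.0% for controls 1 and 2 and 69.7% and 62.1% for cKO 1 and 2. The share was 55.6% in near-projecting-like and 44.3% in corticothalamic-like cells. It was 22.1% in layer 6b or subplate-like, 19.6% in layer 4 or 5 intratelencephalic-like, 12.9% in deep intratelencephalic-like, 9.92% in upper layer-like and 2.92% in astrocyte-like cells. The PT-like and near-projecting-like libraries overlapped. This thinning left out 8 PT-like and 295 astrocyte-like cells that were shallower.

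**Figure D3:**
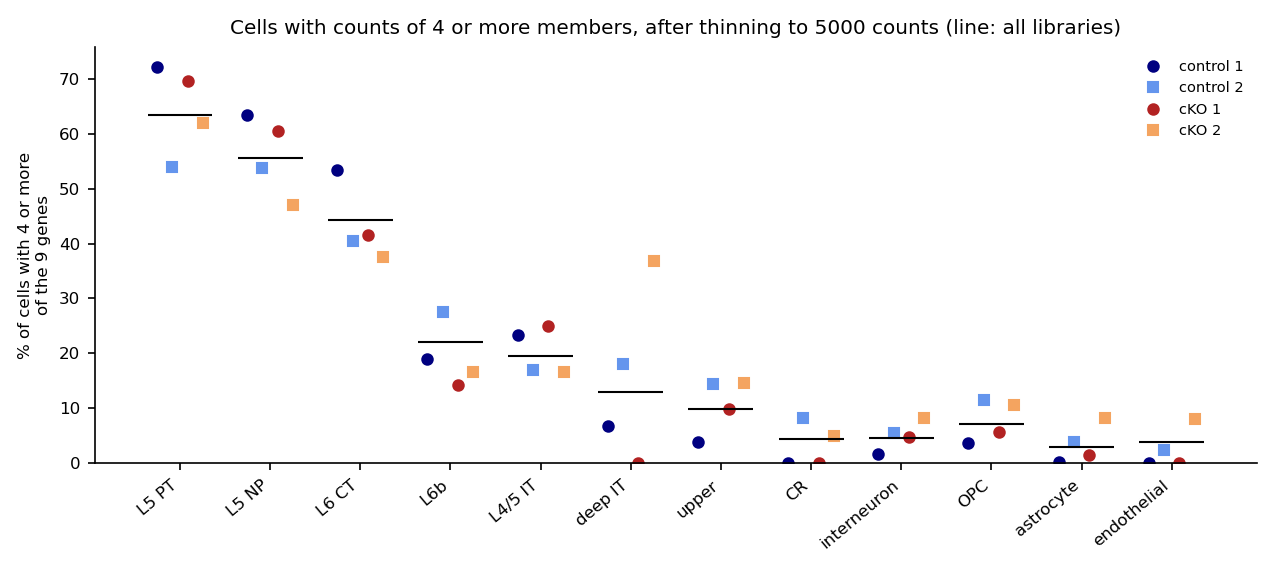
Percentage of D1Tom cells with counts of 4 or more of the 9 genes after thinning every cell to 5000 counts, by class, with 1 point per library and a line for all libraries together; OPC is oligodendrocyte precursor-like. PT-like cells are highest at 63.5%. The L5 NP libraries overlap those of L5 PT and of L6 CT, while L5 PT (54.0 to 72.2%) and L6 CT (37.6 to 53.4%) do not overlap.

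Levels also followed the replicate number, which the labels tie to batch in D1Tom. In Cajal-Retzius-like cells 6 of the 8 genes tested were higher in both replicate 2 libraries than in both replicate 1 libraries, where 27.5% of all genes were. Bcl11b, for example, was 23.9 CPM in control 1 and 17.6 in cKO 1 against 85.7 in control 2 and 109 in cKO 2. Pcp4 was the gene lower there (28.7% of all genes). In PT-like cells 5 of 9 were lower in both replicate 2 libraries (Bcl11b, Fezf2, Pcp4, Etv1 and Tcerg1l), where 23.4% of all genes were, and 0 were higher (15.0%). In corticothalamic-like cells 5 were lower (34.0% of all genes) and 1 higher (20.3%), and in near-projecting-like cells 5 were lower (31.3%) and 1 higher (17.1%). In upper layer-like cells Bcl11b and Etv1 were higher (17.6%) and 0 genes lower (29.7%). The deposited counts themselves differed between replicate numbers: for each entry with a count of 1 there were 1.69 and 1.54 with a count of 2 in control 1 and cKO 1, and 0.723 and 0.307 in control 2 and cKO 2. This bears on low counts and on shares of cells with a count. The part of batch, and of these low counts, in the orders above was not tested.

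The comparison of cKO with control asked whether these identity genes differ with deletion of Foxp2 in the Emx1-Cre lineage. Foxp2 itself was 26.6 and 39.7 CPM in PT-like controls against 11.55 and 5.02 CPM in cKO 1 and 2. It also lay below the controls in corticothalamic-like and upper layer-like cells. In near-projecting-like cells it overlapped (61.5 and 33.8 against 47.6 and 10.8 CPM), but not with that class from clusters (103 and 69.1 against 14.0 and 25.4 CPM). In Cajal-Retzius-like cells it overlapped as well (0 and 24.7 against 9.46 and 10.9 CPM). None of the 9 genes was called in any of the fits by edgeR without a batch term: all D1Tom cells (0.0% of genes called), all D1Tom excitatory cells (0.0%), the 5 classes (0.0% in each) or all GTE cells (0.0332%). DESeq2 called none of the 9 either in these 8 fits. At an unadjusted p under 0.05, 1 of the 9 stood out in PT-like cells (Pou3f1), in corticothalamic-like cells (Tcerg1l), in all D1Tom cells (Pou3f1) and in all GTE cells (Crym), and 0 in the other 4 fits. Over all genes, 385 of 9577 did so in PT-like cells, 130 of 10699 in corticothalamic-like cells, 320 of 14508 in all D1Tom cells and 629 of 12042 in GTE. Fam84b was below the filter on low counts in Cajal-Retzius-like cells, so 8 genes were tested there and 9 elsewhere. In sums over all cells, fewer cells of a type and less RNA per cell cannot be told apart. With 2 libraries against 2, a missing call does not show that a gene did not differ. Same-numbered D1Tom libraries are 1 batch by the labels, and cKO 2 was the only male D1Tom library. The labels repeat this batch text for GTE, but its sexes are not those of the GTE libraries and the deposited metadata give each GTE library a batch value of its own, so GTE batches were taken as unknown. The median mitochondrial share of counts was 3.09% and 4.20% in the D1Tom controls and 4.34% and 6.03% in cKO, and its part in the results was not tested. Leaving out 1 library called a member in 1 of these fits: Etv1 in Cajal-Retzius-like cells without control 2 (log2 3.16, edgeR adjusted p = 0.0386).

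In PT-like cells Pou3f1 lay lower in both cKO libraries (221 and 204 CPM) than in both controls (310 and 330 CPM). The difference was log2 -0.60 ± 0.17 (SE, edgeR adjusted p = 0.999, unadjusted p = 0.00424), and it had the same sign within each batch. Ldb2 lay above the controls in both cKO libraries, by a margin of less than 1 CPM (log2 0.13 ± 0.18). The other 7 genes overlapped between the groups, with log2 differences of -0.55 (Fam84b) to 0.11 (Tcerg1l). Groups failed to overlap for 2 of 9 genes where 32.4% of all genes did so. The median log2 difference was 0.02 for the 9 genes and 0.00 for all genes. PT-like cells made up 1.22% and 2.13% of the control libraries and 1.24% and 1.01% of the cKO libraries.

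Pou3f1 had a negative log2 difference in each of the other fits, from -0.13 ± 0.19 in upper layer-like cells to -0.92 ± 0.52 (SE) in all GTE cells. In near-projecting-like cells it was 62.4 and 127 CPM in the controls against 57.1 and 54.0 CPM in the cKO libraries, which did not overlap. In corticothalamic-like cells it was 27.6 and 79.0 CPM against 33.3 and 33.8 CPM, which overlapped. In all D1Tom cells it was 79.1 and 114 CPM against 63.7 and 57.9 CPM (log2 -0.62 ± 0.23, edgeR adjusted p = 0.998). The excitatory classes made up 21.5% and 33.5% of the D1Tom control cells and 13.8% and 14.2% of the cKO cells, and the part of this in the values over all cells was not tested. These fits share cells, so they are not independent of each other.

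Tcerg1l lay below the controls in corticothalamic-like cells, a class with little of it. It was 31.7 and 38.7 CPM in the controls against 11.7 and 17.8 CPM in the cKO libraries, which did not overlap (log2 -1.22 ± 0.36, SE, edgeR adjusted p = 1.00). With the batch as a replicate block it was called, at log2 -1.23 and an edgeR adjusted p of 0.0274, beside 0.935% of all genes. The block called none of the 9 in all D1Tom cells (0.00689% of all genes), all excitatory cells (2.12%), PT-like (0.0522%), near-projecting-like (0.117%), upper layer-like (1.19%) or Cajal-Retzius-like cells (1.01%). Over the 9 other alternatives Tcerg1l was not called in corticothalamic-like cells. With corticothalamic-like cells from clusters the values overlapped, at 11.9 and 17.2 CPM against 6.74 and 15.5 CPM. In PT-like cells, where Tcerg1l is highest, it was 363 and 217 CPM against 341 and 289 CPM. In corticothalamic-like cells Foxp2 itself was 248 and 192 CPM against 60.0 and 56.8 CPM, and Ldb2 lay below the controls (164 and 124 against 108 and 110 CPM) while Fam84b lay above them (11.5 and 20.7 against 28.3 and 23.1 CPM). Groups failed to overlap for 3 of 9 genes there, against 25.0% of all genes.

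Crym lay above the controls in several D1Tom sums and below them in GTE. In all D1Tom cells it was 22.0 and 26.9 CPM in the controls against 27.0 and 28.0 CPM in cKO, so control 2 and cKO 1 were nearly equal. In all excitatory cells it was 40.9 and 37.9 against 48.4 and 49.5 CPM (log2 0.32 ± 0.15, SE), and it also lay above the controls in near-projecting-like and upper layer-like cells. In GTE it was 38.1 and 38.1 CPM in the libraries labelled control against 7.69 and 26.9 CPM in those labelled cKO (log2 -1.33 ± 0.54, edgeR adjusted p = 0.848). The GTE library labelled cKO 1, which gave 7.69 CPM, stood apart: 41.8% of its cells were astrocyte-like and 36.9% oligodendrocyte precursor-like (at most 14.9% and 5.44% in the other libraries), 10.8% had no class against 76.2% to 91.1% in the 3 other libraries, and its median was 2982 counts per cell against 1085.5 to 1268. Without it the Crym difference was log2 -0.52. All 9 genes had negative log2 differences in GTE, with a median of -0.80 against -0.05 over all genes. The test of the difference between the sorts gave log2 -1.58 ± 0.83 and an edgeR adjusted p of 0.941, and none of the 9 genes was called in it by edgeR or DESeq2 or had an unadjusted p under 0.05 (0.0% of all genes called by edgeR, 5 genes by DESeq2). Etv1 was above the controls in all D1Tom cells (108 and 116 against 118 and 144 CPM) and in all excitatory cells. In interneuron-like cells thinned to 1000 counts, Etv1 was counted in 4.61% and 4.67% of control and 9.31% and 20.9% of cKO cells. Its shares in astrocyte-like, oligodendrocyte precursor-like and corticothalamic-like cells overlapped between the groups. The part of interneuron-like cells in the values over all cells was not tested. Groups failed to overlap for 4 of 9 genes in all D1Tom cells (23.4% of all genes), 2 in all excitatory cells (22.3%), 3 in near-projecting-like cells (26.9%), 2 in upper layer-like cells (28.1%), 0 in Cajal-Retzius-like cells (23.2%) and 2 in GTE (26.2%).

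**Figure D4:**
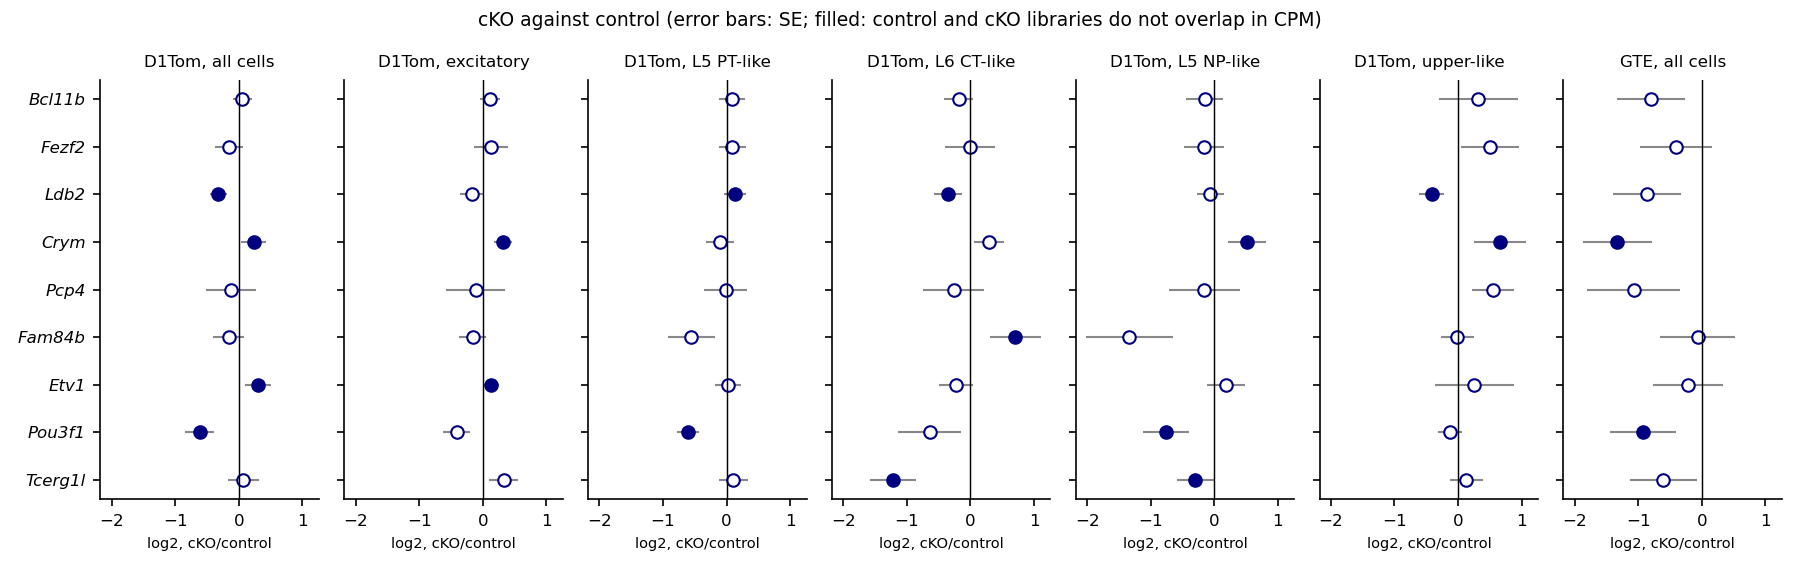
Log2 fold change of cKO over control for the 9 genes in 7 sums of cells, with standard errors from edgeR; filled points are genes whose 2 control and 2 cKO libraries do not overlap in CPM. No point passed the adjusted threshold without the replicate block, and Pou3f1 lies below 0 in every panel.

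None of the genes on the 3 other lists was called between genotypes in these fits by edgeR. The regulators include Foxp2, the deleted gene, which was also not called in corticothalamic-like cells (248 and 192 against 60.0 and 56.8 CPM). A missing call therefore does not show that a listed gene did not differ. At an unadjusted edgeR p under 0.05 stood 1 subcerebral, 5 regulator and 3 callosal genes in PT-like cells, where 385 of all 9577 genes did. In PT-like cells the subcerebral list had a median log2 difference of 0.10 over 18 genes, the regulators -0.11 over 25 and the callosal genes -0.35 over 17, against 0.00 for all genes. Inhba, a callosal gene and upper layer marker, was 28.1 and 38.9 CPM in the controls against 15.1 and 16.7 CPM in the cKO PT-like cells (log2 -1.10 ± 0.38, SE, edgeR adjusted p = 0.999). Slc17a7, the vesicular glutamate transporter, was 236 and 217 CPM against 316 and 279 CPM (log2 0.38 ± 0.17, edgeR adjusted p = 0.999).

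The 2 sorts were then compared over all cells, with genotype as a covariate. Pou3f1 was lower in GTE, with 33.0 and 32.4 CPM for its controls and 32.0 and 16.1 CPM for its cKO libraries, below all 4 D1Tom libraries (log2 -1.01 ± 0.22, SE, n = 8 libraries, edgeR adjusted p = 0.0108). Without D1Tom control 2 the edgeR adjusted p was 0.0534. Fezf2 was lower in GTE as well, at 4.54 to 20.3 CPM against 37.8 to 67.4 CPM in D1Tom (log2 -1.47 ± 0.44, edgeR adjusted p = 0.0353). That call was lost without any of the 4 D1Tom libraries or either GTE control, with edgeR adjusted p-values of 0.0553 to 0.102. The other 7 genes were not called by edgeR (DESeq2 called 4 of the 9), while 20.2% of all genes were, 9.13% higher and 11.1% lower. Pcp4 in GTE measured 305 and 646 CPM for controls and 218 and 311 CPM for cKO. Excitatory classes held 0.101% to 1.47% of GTE cells, and 76.2% to 91.1% of the cells of 3 GTE libraries had no class, so most cells of those 3 libraries are unnamed. Sort, depth and preparation cannot be told apart here.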

How the data were processed

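The deposited tables hold counts of unique molecular identifiers per gene and cell, made by the authors from 10x Chromium 3′ libraries. The submitters' processing notes name bcl2fastq 2.17.1.14, Cell Ranger 2.1.1, UMI-tools 0.5.4, STAR 2.5.2b and featureCounts (Subread 1.6.2), with mm10 and GRCm38.p6. Filters on cells are not given in the sources used here. Members and lists were chosen with earlier results of these data known.

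Cells were classed by marker counts (classes tested with 30 or more cells in each library), counts were summed per library and class, and sums were tested with edgeR 4.0.16 (quasi-likelihood test, TMM factors, filterByExpr, Benjamini-Hochberg over all genes tested, threshold 0.05). Class contrasts came from 1 fit with library as a block. The fraction of mitochondrial counts per cell was taken from the authors' deposited metadata. Doublets were kept, and left out as an alternative. Scripts were tested on simulated data. All 9 genes, the 3 genes most like each, and from each list up to 6 called genes per comparison (otherwise the 2 with the smallest p) could be named. Same-numbered D1Tom libraries share a batch by the labels. Their deviations from group means correlated at 0.519 over 9654 genes in all cells and at 0.693 over 9306 genes in all excitatory cells. Symbols matched GENCODE M21 for 92.2% of D1Tom and 94.0% of GTE genes. Of the genes that the naming rule selects, 1 is not reported here.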

Additional observations from a re-analysis of the deposited data

Results flagged for a closer look

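Ldb2 lay on opposite sides of the controls in different classes of D1Tom. In PT-like cells both cKO libraries were above both controls (log2 0.13), while in corticothalamic-like cells (log2 -0.36) and upper layer-like cells (log2 -0.42) both were below. The lower cKO library and the higher control of PT-like cells were nearly equal. Groups failed to overlap for 32.4% of all genes in PT-like, 25.0% in corticothalamic-like and 28.1% in upper layer-like cells. The difference between the classes was not tested, and none of the 3 values passed edgeR's adjusted threshold.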

How the results depend on the processing

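Over 65 log2 changes and 544 alternatives, 497 kept their direction and side of the threshold, 24 passed it newly, 17 lost it and 6 reversed. The cause was not tested in any of these. The reversals were Etv1 in PT-like against corticothalamic-like cells with classes from clusters (0.45), Pou3f1 in PT-like against upper layer-like cells with clusters (0.50), and without 1 library (-0.22 to 0.019, above 0 without either cKO library), Etv1 in GTE against D1Tom without GTE control 2 (-0.14 to 0.29 over libraries left out) and Tcerg1l there without GTE cKO 1 (-0.60 to 0.033).

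Genes called between genotypes depended on the setting. DESeq2 called 24 in all D1Tom cells, 2 in GTE, 5 in all excitatory cells, 2 each in PT-like, corticothalamic-like, near-projecting-like and upper layer-like cells, 1 in Cajal-Retzius-like cells and 5 in the interaction. With no filter on low counts there were 18 in GTE, 22 in PT-like, 13 in corticothalamic-like, 21 in near-projecting-like, 27 in upper layer-like and 9 in Cajal-Retzius-like cells. With the replicate block there were 1 in all D1Tom cells, 0 in GTE, 274 in all excitatory cells, 5 in PT-like, 100 in corticothalamic-like (1 of the 9 genes, Tcerg1l), 11 in near-projecting-like, 134 in upper layer-like and 91 in Cajal-Retzius-like cells, and the block changed no other genotype call of the 9 genes. GTE numbers correlated at -0.406, so the crossed pairing was added after seeing the data and called 24 genes. Leaving out doublets gave 7 in GTE. Leaving out 1 library gave 0 to 6 genes in all D1Tom cells, 1 to 27 in GTE, 0 to 1 in all excitatory cells, 5 to 63 in PT-like, 0 to 9 in corticothalamic-like, 12 to 37 in near-projecting-like, 1 to 31 in upper layer-like and 0 to 105 in Cajal-Retzius-like cells (0 to 1 of the 9 genes). A lone library was then assumed to vary like the other group.

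Of the contrasts of PT-like cells, no filter called 8 of the 9 genes against near-projecting-like cells, and clusters called 2478 genes against upper layer-like cells. Leaving out 1 library gave 453 to 742 genes against near-projecting-like, 947 to 1312 against corticothalamic-like and 655 to 901 against upper layer-like cells. For GTE against D1Tom, DESeq2 called 4 of the 9 genes, and leaving out 1 library gave 0 to 4 of them and 1350 to 3522 genes.

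Shares of PT-like cells with a count moved with the thinning depth, which limits them. At 500, 2000 and unthinned they were 18.6, 57.4 and 76.9% for Bcl11b, 7.69, 21.9 and 66.7% for Fezf2, 18.6, 45.8 and 82.7% for Ldb2, 20.5, 36.8 and 78.2% for Pcp4 and 12.2, 31.6 and 69.2% for Tcerg1l. Crym was 44.2% unthinned, Fam84b 1.28% at 500 and 46.8% unthinned, Etv1 13.6% at 2000 and 48.7% unthinned, and Pou3f1 12.2% at 500 and 76.3% unthinned. No excitatory GTE class reached 30 cells in every library, and near-projecting-like cells could not be fitted with the stricter gate or clusters.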
